A study of Canis lupus familiaris with 15 samples.

Results

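HOX genes and the transcription factors that give a limb its identity were described in primary canine osteosarcomas (OSA) by cluster, by paralog number and by the bone the tumor grew in. All genes with a symbol of HOXA, HOXB, HOXC or HOXD followed by a number were taken, together with TBX4, TBX5, PITX1, MEIS1, MEIS2 and SHOX2, and every probeset assigned to 1 such symbol was kept. This gave 38 probesets of 27 genes, out of 42860 probesets and 15115 named genes on the array. The genes comprised 7 of HOXA, 8 of HOXB, 5 of HOXC, 1 of HOXD and the 6 other factors. The RefSeq annotation of the dog lists 38 HOX genes, and 17 of them, including HOXA10, HOXA11, HOXC11, HOXD9, HOXD11 and HOXD13, had no such probeset and were not analysed here.

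HOX genes encode homeodomain transcription factors that lie in clusters, and genes at the same place in different clusters are paralogs that share a number. In the embryo low paralog numbers mark anterior and proximal territory, and the highest mark the posterior body and the far end of the limb. In mouse and chick PITX1 and TBX4 act in the early hindlimb and TBX5 in the early forelimb, MEIS1 and MEIS2 mark the part of the limb nearest the trunk and encode partners of HOX proteins, and SHOX2 is needed for growth of the upper limb bones. Adult human fibroblasts keep a HOX pattern that reflects the body site they came from.

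Tumors of 15 client-owned dogs were each profiled on an Affymetrix Canine 2.0 array. Tumors were taken at limb amputation before any chemotherapy, and all dogs then received doxorubicin, a platinum drug or both. The labels place 8 dogs in a cohort with a disease-free interval under 100 days after treatment (DFI < 100) and 7 in a cohort with an interval over 300 days (DFI > 300). The site came from the study's list of dogs, matched by dog number. Hindlimb tumors comprised 2 in the tibia and 4 in the femur, and forelimb tumors 3 in the radius and 6 in the humerus. The lower limb segment (tibia, radius) thus held 5 dogs and the upper segment (femur, humerus) 10. Both tibia dogs belonged to DFI < 100 and all 3 radius dogs to DFI > 300, so bone and cohort are not separable within the lower segment. Both tibia tumors were of the giant cell subtype, as was 1 humerus tumor. A radius tumor was poorly differentiated and the other 11 tumors were osteoblastic. The dogs were 4 Greyhounds, 2 Golden Retrievers, 2 Rottweilers, a Doberman, a Labrador Retriever and 5 mixed breeds. Hindlimb dogs 173175 and 223986 were castrated males and the other hindlimb dogs spayed females. Forelimb dogs 168327, 208756 and 208911 were spayed females and the other forelimb dogs castrated males. Sex was thus unevenly spread over the limbs. Mean age was 8.48 ± 2.35 years in hindlimb dogs and 9.41 ± 2.80 years in forelimb dogs (SD). By cohort it was 7.80 ± 2.28 years in DFI < 100 and 10.5 ± 2.27 years in DFI > 300.

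Values are log2 of the PLIER signal, the summary of a probeset on an array, and each was set against a background level. That level was the 95th percentile of 64 probesets for foreign reporter sequences, log2 6.79 as a mean of the arrays (6.53 to 7.12). Median PLIER signal ran from 46.6 to 54.7, and pairs of arrays correlated at r of 0.816 to 0.899. Humerus dog 208513 had the lowest mean correlation with the other arrays (0.841). Of 8 measured osteoblast markers 5 lay above the reporter level on average, and BGLAP, DMP1 and PHEX did not. These are whole tumors, so fewer cells of a type and less RNA per cell cannot be told apart. The arrays were run in 2 batches whose members are not named in the sources used here, and the part of the batch in any result was not tested.

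Most of these genes were not above background. A mean over the 15 dogs above the reporter level was found for 5 of the 27 genes (18.5%), HOXA4, HOXA5, HOXA9, HOXB7 and HOXC12, against 6448 of all named genes (42.7%). HOXA5 and HOXA9 were above it in all 15 dogs, HOXB7 in 14, HOXC12 in 13 and HOXA4 in 12. A further 6 genes passed it in some dogs: HOXD10 and MEIS2 in 6 each, HOXA7 in 5, SHOX2 in 3, PITX1 in 2 and HOXC8 in 1. The other 16 genes were below it in every dog, among them all 8 HOXB genes but HOXB7, and TBX4, TBX5 and MEIS1. The genes nonetheless varied among dogs, with a median SD of log2 0.66 against 0.49 over all named genes. Values below the reporter level carry little information on the amount of RNA, and differences there are given as measured only. The plot of all members by limb shows how few stood above the reporter level and how far single dogs lay from the rest.

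**Figure D1:**
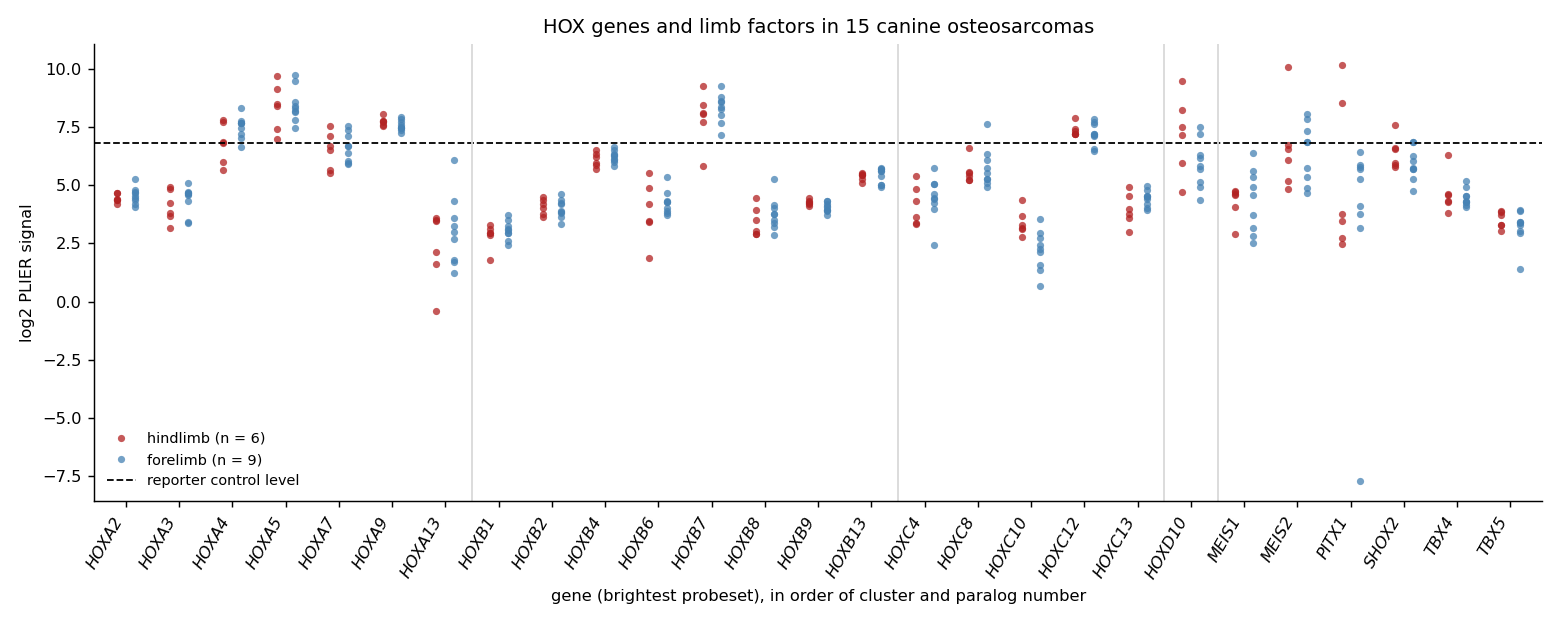
Log2 PLIER signal (y axis) of the 27 genes, each by its brightest probeset, in order of cluster and paralog number (x axis), with 1 point per dog, 6 hindlimb tumors in red at left and 9 forelimb tumors in blue at right. The dashed line is the reporter control level of 6.79; 5 genes have a mean above it, and PITX1, HOXD10 and MEIS2 have single dogs far above the rest.

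Among the limb identity factors, PITX1, the homeodomain factor that directs hindlimb fate, was above background in femur tumors alone and in only 2 of those 4. It read 10.17 in femur dog 223986 and 8.51 in femur dog 173175, both distal femur tumors of DFI < 100. The other femur dogs, 180119 and 180223, read 3.75 and 2.73, and the tibia dogs 3.45 and 2.45. In the 9 forelimb dogs the lowest value was -7.69, the median 5.25 and the highest 6.42. The other 4 hindlimb dogs thus lay below the forelimb median, while the top pair exceeded every forelimb dog. All 13 other dogs were below background, so a fold can only be bounded at the reporter level: PLIER signal was at least 10.4-fold higher in dog 223986 and at least 3.30-fold higher in dog 173175. The value of -7.69, in radius dog 193231, is a PLIER signal close to 0.

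TBX4, the T-box factor of the hindlimb, was below background in every dog on both of its probesets. On the brighter it read 3.80 and 4.62 in the tibia dogs, 4.26, 4.33, 4.57 and 6.27 in the femur dogs, and 4.06 to 5.16 (median 4.33) in the forelimb dogs. Its highest value on both probesets, 6.27 and 4.48, was in femur dog 173175, a dog that also had high PITX1. TBX5, the T-box factor of the forelimb, read 3.02 to 3.91 (median 3.49) in hindlimb dogs and 1.40 to 3.92 (median 3.36) in forelimb dogs, with the hindlimb range inside that of the forelimb. No forelimb tumor had TBX5 signal above background on this array.

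SHOX2, a homeodomain factor of the upper limb skeleton, lay above the forelimb median of 5.72 in all 6 hindlimb dogs, but the groups overlapped. It read 6.59 and 7.56 in the tibia dogs, 5.78 to 6.55 in the femur dogs, 5.28, 6.26 and 6.84 in the radius dogs and 4.77 to 6.84 in the humerus dogs. The highest of all was tibia dog 204714.

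MEIS2, a partner of HOX and PBX proteins, was bright in a single hindlimb tumor. Tibia dog 204714 read 10.06 on the brighter probeset and 9.62 on the other, and tibia dog 153599 read 6.71 and 6.01. Femur dogs read 4.81 to 6.56, radius dogs 4.86 to 6.87 and humerus dogs 4.67 to 8.04 on the brighter probeset, where 5 of 9 forelimb dogs and 1 of 6 hindlimb dogs exceeded the reporter level. On the other probeset dog 204714 alone exceeded it. The median of the other 14 dogs was below background on both probesets, and with the reporter level in its place the signal of dog 204714 was at least 9.63-fold higher on the brighter and at least 7.11-fold higher on the other probeset. MEIS1 read 2.91 to 4.74 (median 4.59) in hindlimb dogs and 2.51 to 6.36 (median 4.56) in forelimb dogs, below background throughout.

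HOXD10 is a 5′ gene of its cluster that acts in the hindlimb and lower spinal cord of the mouse embryo. Like PITX1 it stood out in a pair of femur tumors. On the probeset whose gene ID is in RefSeq, called the second here because its mean was marginally lower, it read 11.36 in femur dog 173175 and 9.47 in femur dog 180223. The other femur dogs read 5.99 and 6.13, the tibia dogs 5.33 and 6.004, and the forelimb dogs 5.26 to 6.25 (median 5.65). The other 13 dogs were all below background, and against the reporter level dog 173175 was at least 23.8-fold and dog 180223 at least 6.43-fold higher. The brighter probeset carries a gene ID that RefSeq does not list. It placed the same pair at the top, at 9.47 and 8.21, but spread the other dogs more widely, with 4.72 and 7.17 in the tibia dogs, 5.96 and 7.51 in the other femur dogs, 4.91, 7.17 and 7.50 in the radius dogs and 4.37 to 6.30 in the humerus dogs.

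Dog 173175 was high for both PITX1 and HOXD10, and dog 180223 was high for HOXD10 with PITX1 below background. Dog 223986 was high for PITX1, and its HOXD10 was below background on the second probeset (6.13) but above it on the brighter one (7.51). Dog 180223 had a proximal femur tumor and the other 2 had distal ones. The fourth femur dog, 180119, with a distal tumor, was high for neither. Marker sums of dog 173175 were the highest of 15 for cartilage (4782 PLIER units, against a median of 981 in the other dogs) and second for osteoblasts. The cartilage sums of dogs 223986 and 180223 were 899.6 and 2166. Of 8 measured cartilage markers only 1, ACAN, had a mean above background. The part of cell content in these high values was not tested.

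HOXC10, the paralog of HOXD10 in the HOXC cluster, had the smallest unadjusted p of any member between the limbs, entirely within the background range. Hindlimb dogs read 2.76, 3.11, 3.17, 3.29, 3.68 and 4.37, and forelimb dogs 0.66 to 3.54 with a median of 2.25. All 6 hindlimb dogs were above the forelimb median, and 7 of the 9 forelimb dogs were below every hindlimb dog, the exceptions being humerus dogs 208513 (3.54) and 208756 (2.96). The highest hindlimb value was again in dog 173175. By bone the means were 3.14 ± 0.04 in the tibia (n = 2), 3.53 ± 0.68 in the femur (n = 4), 2.04 ± 0.44 in the radius (n = 3) and 2.25 ± 1.07 in the humerus (SD, n = 6). The plot by bone shows the contrast between HOXC10, with a small shift over all dogs, and PITX1 and HOXD10, with a few high femur dogs.

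**Figure D2:**
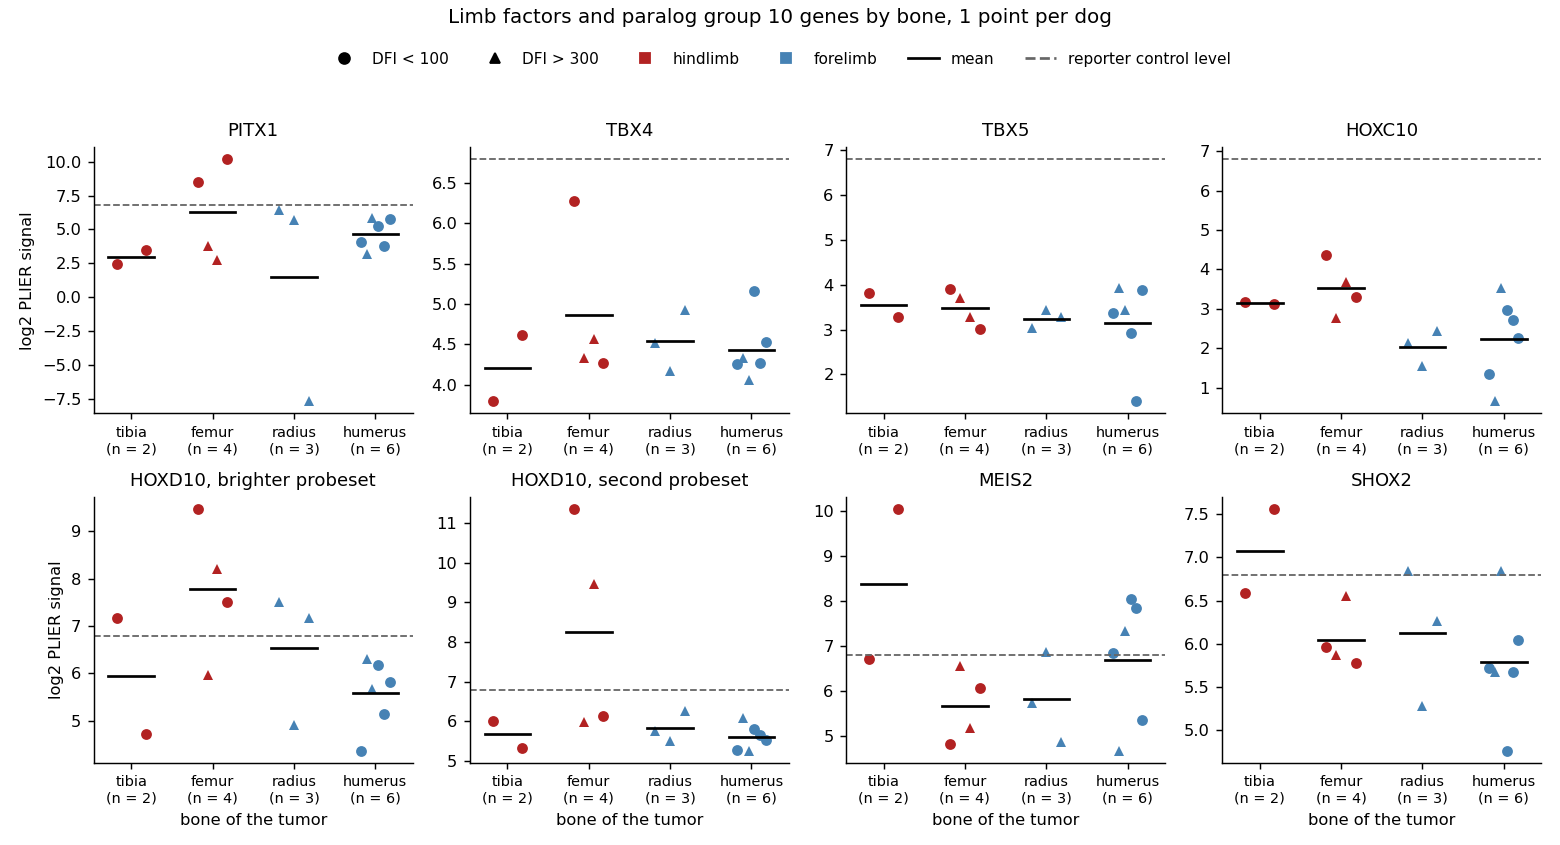
Log2 PLIER signal (y axis, a scale of its own in each panel) in each dog by the bone of the tumor (x axis), for PITX1, TBX4, TBX5, HOXC10, both HOXD10 probesets, MEIS2 and SHOX2, with hindlimb dogs in red and forelimb dogs in blue, circles for DFI < 100, triangles for DFI > 300, a bar for the mean and a dashed line for the reporter level. PITX1 and HOXD10 are high in 2 femur dogs each and MEIS2 in 1 tibia dog, while TBX4, TBX5 and HOXC10 lie below the line in all dogs.

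The limb comparison asked whether a tumor kept the code of the limb it grew in. In the limma fit of all 42860 probesets, none of the 38 probesets and none of all probesets passed an adjusted p of 0.05 (0% called) between 6 hindlimb and 9 forelimb tumors, and the methods' t-test after adjustment gave 0 as well. At an unadjusted p under 0.05, 2 of 38 probesets were called, both higher in hindlimb tumors, against 1803 of all probesets (4.21%, of which 1.86% higher and 2.34% lower). The methods' t-test called 2 of the 38 and 1767 of all probesets (4.12%) at that level. A share of 2 in 38 is close to the background. Hindlimb and forelimb dogs did not overlap for 9 of all probesets (0.021%) and for none of the 38. By gene, 11 of the 27 had a higher mean in hindlimb tumors and 16 a lower one, where 49% of all probesets were higher, with a median difference of log2 -0.10 against 0.0028 over all named genes.

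The pair called by limma were HOXC10 and the second HOXD10 probeset. The 2 probesets called by the methods' t-test were each the brightest of their gene. The second HOXD10 probeset was thus not among them, and its call depended on the test. HOXC10 averaged 3.40 ± 0.56 in hindlimb tumors and 2.18 ± 0.88 in forelimb tumors (SD), a difference of 1.22 (SE 0.39) with an unadjusted p of 0.0069 and an adjusted p of 0.970 in limma. With 16 added to the signal before log2, which damps low values, the difference was 0.35. The second HOXD10 probeset averaged 7.38 in hindlimb tumors and 5.68 in forelimb tumors, a difference of 1.70 (SE 0.76, unadjusted p = 0.0402), and 0.91 without dog 173175. On the brighter HOXD10 probeset the means were 7.17 ± 1.67 in hindlimb tumors and 5.90 ± 1.02 in forelimb tumors, a difference of 1.28 (SE 0.65, unadjusted p = 0.0675), and 0.82 without dog 173175. HOXA4, expressed in anterior body regions of the embryo, had the next smallest p and the opposite sign, at 6.80 ± 0.86 in hindlimb tumors and 7.48 ± 0.48 in forelimb tumors, a difference of -0.68 (SE 0.33, unadjusted p = 0.0575), and -0.46 without femur dog 180119. Its values were 5.66 and 6.01 in femur dogs 180119 and 173175, below every forelimb dog, and 6.81 to 7.78 in the other hindlimb dogs. The dimmer HOXA4 probeset, below background in every dog, differed by -0.17 (SE 0.26), and the mean of all HOXA4 probesets by -0.43. With the upper segment only, the difference was -1.12 for HOXA4, 2.21 for the brighter HOXD10 probeset and 2.64 for the second. HOXC13 differed by -0.47 (SE 0.26), or -0.28 without dog 180119, and HOXB9 by 0.21 (SE 0.12), both among values below background.

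For the limb identity factors themselves the differences were smaller than their spread. PITX1 differed by 1.59 (SE 1.96, unadjusted p = 0.430 in limma), with group SDs of 3.30 in hindlimb tumors and 4.37 in forelimb tumors, by 0.18 without radius dog 193231, 0.59 without femur dog 223986 and 0.92 without femur dog 173175. TBX4 differed by 0.17 (SE 0.31), and by -0.15 without femur dog 173175. TBX5 differed by 0.31 (SE 0.32), or 0.092 without humerus dog 208911, and SHOX2 by 0.49 (SE 0.34), or 0.25 without tibia dog 204714. The differences were small for MEIS2, 0.17 (SE 0.76), and MEIS1, -0.06 (SE 0.57). The MEIS2 difference was -0.53 without tibia dog 204714.

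**Figure D3:**
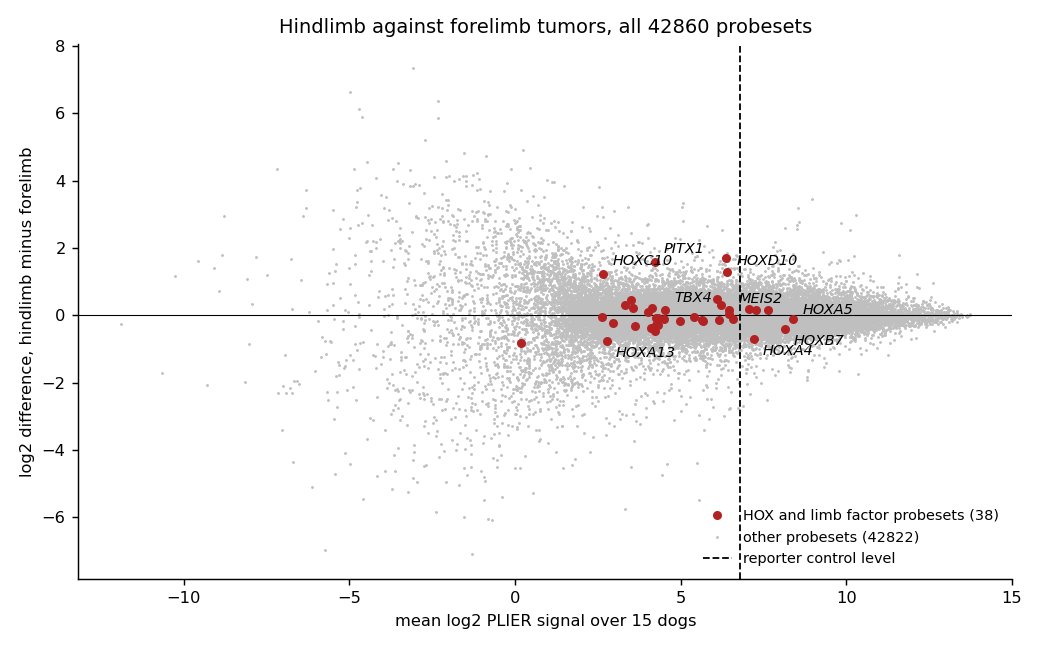
Hindlimb minus forelimb difference of mean log2 PLIER signal (y axis) against the mean over 15 dogs (x axis) for all 42860 probesets, with the 38 HOX and limb factor probesets in red, the brightest probeset of selected genes named and the reporter level dashed. The 38 lie within the cloud of other probesets of the same mean; HOXD10, PITX1 and HOXC10 are highest among them, and none passed the adjusted threshold.

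By paralog number, on the brightest probesets, the 6 genes of numbers 5 to 8 all had lower means in hindlimb tumors (median difference -0.24). The HOXC8 probeset whose gene ID is in RefSeq went the other way, at 0.45 (unadjusted p = 0.199 in limma). Of the 7 genes of numbers 1 to 4, 6 had lower means (median -0.24). A mean above background was found for 1 gene of numbers 1 to 4, 2 of numbers 5 to 8 and 2 of numbers 9 to 13. Of the 8 genes of numbers 9 to 13, 5 had higher and 3 lower means (median 0.16). HOXC10, HOXD10, HOXB9, HOXA9 and HOXC12 were the 5, and HOXA13, HOXB13 and HOXC13 the 3. By cluster, 6 of 7 HOXA, 6 of 8 HOXB and 3 of 5 HOXC genes were lower in hindlimb tumors. Apart from HOXC10 and the second HOXD10 probeset these differences did not reach an unadjusted p of 0.05 in limma. Over all named genes 50.4% were higher in hindlimb tumors.

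Markers of some other cells leaned to the hindlimb, where 50.4% of all named genes were higher. Of the lists not detailed here, 5 of 6 endothelial and 7 of 11 skeletal muscle markers were higher, and cartilage markers split 4 and 4. For osteoblasts, fat, blood and marrow, and skin more markers were lower than higher. All 6 measured osteoclast markers had higher means in hindlimb tumors, with a median difference of 1.39, and their summed PLIER signal was 12336 to 30847 (median 23176) in hindlimb dogs and 1471 to 34219 (median 12556) in forelimb dogs, with CALCR and TNFRSF11A below background on average. Of 8 measured leukocyte markers 7 were higher, with sums of 1077 to 5459 (median 3534) in hindlimb dogs and 382 to 5085 (median 1509) in forelimb dogs, and CD3E, CD3D, CD79A and MS4A1 were below background. The 3 giant cell tumors had the highest osteoclast sums, 30847 and 30746 in tibia dogs 153599 and 204714 and 34219 in humerus dog 208911. The part of subtype was not tested. None of these markers passed the adjusted threshold. The part of the markers in the limb differences was not tested.

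The comparison of limb segments asked about the proximal to distal axis. Between 5 tibia or radius tumors and 10 femur or humerus tumors, limma again called 0 of all probesets at an adjusted p of 0.05 (0%), as did the methods' t-test. At an unadjusted p under 0.05, 4 of 38 probesets were called, all lower in the lower segment, against 1094 of all probesets (2.55%, made up of 0.964% higher and 1.59% lower). The segments did not overlap for 0.0257% of all probesets and for none of the 38. The methods' t-test called 1 of the 38, against 1089 of all probesets (2.54%), so this count depended on the test. By gene, 7 of 27 had higher and 20 lower means in the lower segment, where 48.1% of all probesets were higher, with a median of -0.15 against -0.0010 over all named genes.

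The called probesets belonged to HOXB7, HOXC4, HOXB6 and MEIS1. HOXC4, a gene of anterior body regions, read 3.33 and 3.37 in the tibia dogs and 2.42, 4.38 and 5.05 in the radius dogs. It read 3.65 to 5.74 (median 4.52) in the upper segment, a difference of -0.92 (SE 0.41, unadjusted p = 0.0399 in limma). The difference was -0.59 without radius dog 188084 and 0.046 with osteoblastic tumors only. That subset left radius dogs 168327 and 193231, both of DFI > 300, and no tibia dog in the lower segment. MEIS1, the proximal limb marker, averaged 3.56 ± 1.13 in the lower and 4.68 ± 0.93 in the upper segment, a difference of -1.12 (SE 0.52, unadjusted p = 0.0462). It read 2.91 and 4.63 in the tibia dogs and 2.51, 2.82 and 4.92 in the radius dogs, so 3 of the 5 were below every upper segment dog. The MEIS1 difference was -2.03 with osteoblastic tumors only. HOXC4 and MEIS1 were below background in every dog.

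HOXB7, a gene of the trunk, was the one expressed gene of this set. Its second probeset was called at a difference of -0.63 (SE 0.24, unadjusted p = 0.0199), but was below background in all dogs. The brighter one averaged 7.62 ± 1.17 in the lower and 8.40 ± 0.56 in the upper segment. Its difference was -0.77 (SE 0.42, unadjusted p = 0.0835 in limma), and -0.32 without tibia dog 204714. With osteoblastic tumors only, and so again no tibia dog, the difference was 0.17. The brighter probeset read 5.83 and 8.04 in the tibia dogs and 7.16, 8.29 and 8.80 in the radius dogs. In the upper segment it read 7.66 to 9.27 (median 8.40). The called HOXB6 probeset differed by -3.76 (SE 1.71, unadjusted p = 0.0443), with signals close to 0 in tibia dog 204714 (-7.50) and radius dog 168327 (-9.72). The other lower segment dogs read 1.75, 1.86 and 1.96 and the upper segment dogs -1.75 to 2.41, all below background. The brighter HOXB6 probeset differed by -0.87 (SE 0.41, unadjusted p = 0.0527), and by -0.45 without dog 204714. HOXB8 differed by -0.60 (SE 0.32), or -0.31 without the Greyhounds, and SHOX2 by 0.62 (SE 0.35), or 0.35 without dog 204714. All 6 genes of paralog numbers 5 to 8 had lower means in the lower segment (median -0.49), as did 7 of 8 genes of numbers 9 to 13 (median -0.15) and 4 of 7 of numbers 1 to 4 (median -0.07). HOXA13, whose product patterns the far end of the limb, averaged 2.18 ± 1.84 in the lower and 3.06 ± 1.33 in the upper segment, below background in every dog. In the lower segment 5 of 6 osteoclast markers (median difference 0.60), 6 of 8 leukocyte markers (0.38) and all 6 endothelial markers (0.13) had higher means, none past the adjusted threshold, and their part was not tested.

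Whether the segment difference depended on the limb was tested as an interaction. Of all probesets 2 passed an adjusted p of 0.05 (0.00467%) and none of the 38. At an unadjusted p under 0.05, 4 of the 38 were called, against 1071 of all probesets (2.5%). These were both MEIS2 probesets, with the segment difference 3.59 (SE 1.37) and 2.30 (SE 0.90) larger in the hindlimb, and HOXD10 (-2.80, SE 1.26) and HOXB6 (-1.65, SE 0.75) on their brighter probesets. The hindlimb side rests on 2 tibia dogs. Without dog 153599 the term of the dimmer MEIS2 probeset was 4.10, against 2.30 with all dogs. That fit leaves 1 tibia dog, 204714, which is assumed to vary like the other groups, so only the size is given.

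The study's own cohorts were compared last. Between 8 dogs of DFI < 100 and 7 of DFI > 300, limma called 0 of all probesets at an adjusted p of 0.05 (0%), and so did the methods' t-test. At an unadjusted p under 0.05, 1 of the 38 probesets was called, lower in DFI < 100, against 1578 of all probesets (3.68%, made up of 1.83% higher and 1.85% lower), and the methods' t-test called none of the 38 and 1567 of all (3.66%). The cohorts did not overlap for 0.0187% of all probesets and for none of the 38. By gene 12 were higher and 15 lower in DFI < 100, where 50.9% of all probesets were higher, with a median of -0.08 against 0.0169 over all named genes.

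HOXA5, expressed in the trunk and in connective tissue of the embryo, was the probeset called and was above background in every dog. It read 6.97 to 9.67 (median 7.99) in DFI < 100 and 8.12 to 9.72 (median 8.56) in DFI > 300. Of the 8 dogs of DFI < 100, 4 were below every dog of DFI > 300, and tibia dog 153599 at 9.67 was the one above the DFI > 300 median. The means were 8.02 ± 0.83 in DFI < 100 and 8.84 ± 0.60 in DFI > 300, a difference of -0.82 (SE 0.36, unadjusted p = 0.0403, adjusted p = 0.999 in limma). It was -0.26 without the 4 Greyhounds. HOXA13 differed by -1.38 (SE 0.67), HOXC12 by 0.35 (SE 0.20), HOXB1 by -0.37 (SE 0.22) and MEIS2 by 1.08 (SE 0.69), and of these HOXC12 alone had a mean above background. Without tibia dog 153599 the HOXB1 difference was -0.23, without tibia dog 204714 that of MEIS2 was 0.64, and without the Greyhounds that of HOXA13 was -0.67. HOXC12 read 7.43 ± 0.31 in DFI < 100 and 7.08 ± 0.42 in DFI > 300. With an age covariate the difference was 0.65 for HOXC12 and -2.46 for HOXA13, both at an adjusted p of 0.998 in limma. The mean of all HOXC12 probesets differed by 0.19. PITX1 differed by 2.59 (SE 1.85), with both high dogs in DFI < 100 and the dog near 0 in DFI > 300.

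**Figure D4:**
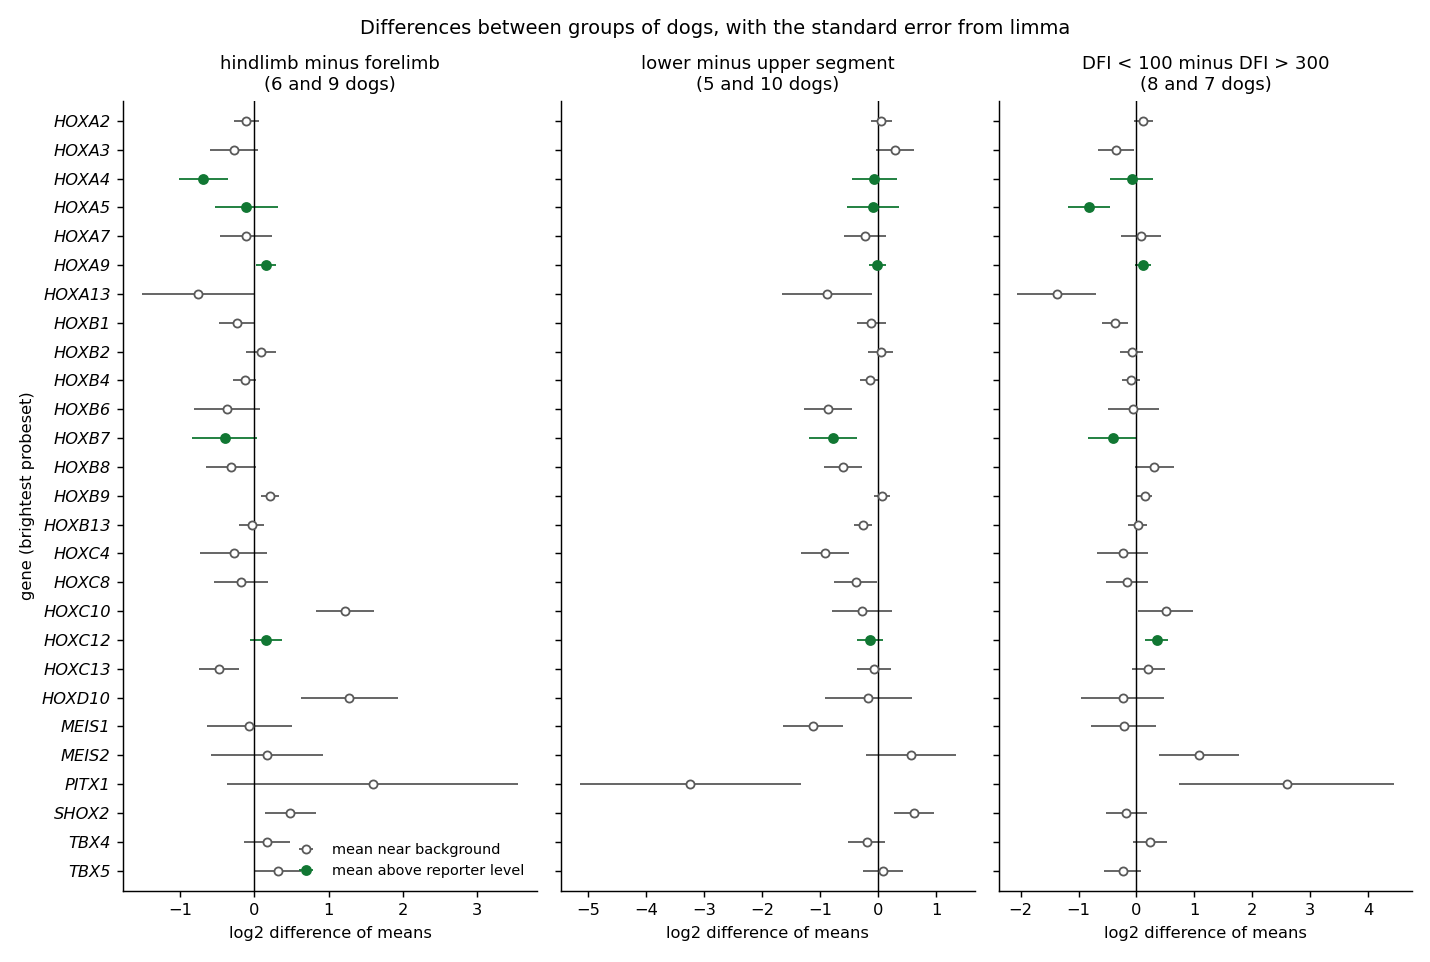
Log2 difference of group means (x axis) with the standard error from limma as bars, for the brightest probeset of each of the 27 genes (y axis), hindlimb minus forelimb at left, lower minus upper segment in the middle and DFI < 100 minus DFI > 300 at right, on separate scales. Filled green points are the 5 genes with a mean above the reporter level; none of the 27 passed an adjusted p of 0.05 in any of the 3 comparisons.

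Single dogs stood at the ends of many genes. How often each dog was highest or lowest over all named genes was not computed, so an effect on a whole array was not tested. Dog 204714 had the lowest median PLIER signal (46.6) and dog 208513 the lowest mean correlation with other arrays (0.841). Femur dog 173175 had the highest value for 6 of the 27 genes, HOXA9, HOXB6, HOXB9, HOXC10, HOXD10 and TBX4, and humerus dog 208513 for 5, HOXA13, HOXC4, HOXC8, HOXC13 and MEIS1. HOXC8 in dog 208513 read 7.64, the one value of that gene above background, on the probeset whose gene ID RefSeq does not list, while the listed probeset read 3.68 there. Tibia dog 204714 had the lowest value for 6 genes, HOXA3, HOXA5, HOXA13, HOXB4, HOXB6 and HOXB7, and the highest for MEIS2 and SHOX2. This dog also had the highest summed osteoblast markers (36606, against a median of 19924 in the other dogs), the third highest for cartilage (3808) and for osteoclasts (30746), and the lowest for skeletal muscle (635). Of 11 measured skeletal muscle markers 3 had means above background. The part of the marker genes was not tested.

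The least variable expressed genes were HOXA9 and HOXC12, posterior genes of their clusters. HOXA9 read 7.52 to 8.06 in hindlimb dogs and 7.23 to 7.91 in forelimb dogs, and HOXC12 read 7.18 to 7.86 in hindlimb dogs and 6.47 to 7.84 in forelimb dogs. Both genes have 2 further probesets. Those of HOXA9 averaged 4.25 and 6.47, below background, which the dimmer one passed in no dog and the other in 2 dogs. Of those of HOXC12, one averaged 7.05 and was above background in 12 dogs, and the other averaged 2.64 and was below it in every dog. A probeset shared by HOXC6 and HOXC4 was below background in all dogs and was not assigned to either gene.

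Genes that act with or on HOX genes showed no probeset past the adjusted threshold between the limbs. Of 61 listed limb patterning genes 53 were measured, 27 with higher and 26 with lower means in hindlimb tumors (median 0.02), and 4 had an unadjusted p under 0.05, all lower, where 2.34% of all probesets were lower at that level. BMP7, a bone morphogenetic protein, averaged 3.78 ± 1.45 in hindlimb tumors and 6.74 ± 2.29 in forelimb tumors, a difference of -2.96 (SE 0.99, unadjusted p = 0.0091 in limma). IRX2 differed by -2.16 (SE 0.90) and SP8 by -0.49 (SE 0.22), and all 3 had means below background. Of 18 listed HOX cofactors 14 were measured and none reached an unadjusted p under 0.05 between the limbs.

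Of 46 listed chromatin regulators of HOX genes 36 were measured, 19 higher and 17 lower in hindlimb tumors (median 0.01). The 3 with an unadjusted p under 0.05 were all lower, where 2.34% of all probesets were lower at that level. RNF2, which encodes a ubiquitin ligase of polycomb complex 1, averaged 6.64 ± 0.16 in hindlimb tumors and 7.50 ± 0.60 in forelimb tumors, a difference of -0.86 (SE 0.25, unadjusted p = 0.0035), and its groups did not overlap, as for 0.021% of all probesets. BMI1, its partner, averaged 8.97 ± 0.39 in hindlimb tumors and 9.72 ± 0.60 in forelimb tumors, and JARID2, a cofactor of complex 2, 9.06 ± 0.49 in hindlimb tumors and 9.87 ± 0.68 in forelimb tumors. The adjusted p of these 3 was 0.970. EED, a core subunit of complex 2 that was picked after its values were seen, had the opposite sign, at 8.83 ± 0.28 in hindlimb tumors and 7.63 ± 1.69 in forelimb tumors (unadjusted p = 0.0901). Between segments 1 of the 53 measured limb patterning genes had an unadjusted p under 0.05 in limma, against 2.55% of all probesets. ISL1, which acts in the early hindlimb, differed by 0.36 (SE 0.15). Between cohorts 1 of those 53 and 1 of the 14 measured cofactors did, against 3.68% of all probesets. WNT7A, a signal of dorsal limb ectoderm, differed by 0.46 (SE 0.19) and EVX2, which lies beside the HOXD cluster, by 0.37 (SE 0.14). No gene of these lists passed the adjusted threshold. ISL1, WNT7A and EVX2 were below background.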

How the data were processed

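RNA was measured on Affymetrix Canine 2.0 arrays, 1 per dog, in 15 tumors with an RNA integrity number above the study's minimum. The authors summarised the probes with PLIER in Affymetrix Expression Console and deposited an intensity per probeset and array on a linear scale. The sources used here give no versions and no account of how probes were normalized before PLIER. The log2 of the deposited intensity was taken with no offset or further normalization. The 175 control probesets were left out, and 42860 were tested with limma 3.58.1 in R 4.3.3 (lmFit and eBayes) with Benjamini-Hochberg adjustment over all of them, at a threshold of 0.05. Gene symbols came from the platform annotation, which gives 29254 probesets 1 symbol, 439 several and 13167 none. A gene stood for its probeset of highest mean, except among the genes under other observations, which were ranked over all their probesets. The number of arrays limits the precision.

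Cohorts came from the sample labels and bones from the study's list of dogs. By the naming rule, all members may be named, values by dog are given for the 6 limb factors and for the HOX gene of highest mean in each cluster, and the 5 members of smallest p are given in each comparison. The members, the gene lists and the marker lists were chosen with earlier results of these data known, so no list is independent evidence. Of the 38 probesets 2, of HOXC8 and HOXD10, carry gene IDs that are not in the RefSeq table of dog genes. Alternatives changed the offset (16), normalization, moderation, test, low-value filter, array weights, covariates and the dogs included. The fit was tested on simulated differences planted in probesets with means above background. Its power for the members below background was not tested. Figures were drawn with matplotlib 3.10.9.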

Additional observations from a re-analysis of the deposited data

Results flagged for a closer look

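In 168 groups of 5 to 10 dogs, 1 per member gene and group with the second HOXD10 probeset added, 20 had a highest or lowest dog far from the nearest other dog, in 12 genes and 7 dogs. The share of groups expected by chance alone is about 5%, an assumed rate that was not measured on these arrays. The share over all named genes was not computed, so whether these genes have more such dogs than others was not tested. The groups of limb, segment and cohort share their dogs. All values are log2 PLIER signal.

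Among the limb factors, PITX1 in radius dog 193231 lay far below the other dogs at -7.69 in the forelimb, lower segment and DFI > 300 groups. TBX4 in femur dog 173175 was far above the other hindlimb and upper segment dogs at 6.27. TBX5 in humerus dog 208911 was far below the others of the forelimb, the upper segment and DFI < 100 at 1.40. MEIS2 in tibia dog 204714, at 10.06, was far above the other hindlimb dogs, and MEIS1 in the same dog, at 2.91, far below them.

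Among HOX genes, the second HOXD10 probeset stood far above the other dogs of DFI < 100 in femur dog 173175 (11.36) and of DFI > 300 in femur dog 180223 (9.47). HOXC8 was far above the other hindlimb dogs in dog 173175 (6.58) and above the other dogs of DFI > 300 in humerus dog 208513 (7.64), and HOXA13 was far above the other upper segment dogs in dog 208513 (6.09). Tibia dog 204714 was far below the others for HOXB7 in DFI < 100 (5.83) and for HOXA3 in the lower segment (3.16). HOXB1 was high in radius dog 193231 within DFI > 300 (3.71) and low in tibia dog 153599 within the hindlimb (1.77), where HOXC12 was high (7.86). HOXB7 and HOXC12 are the genes of this paragraph with a mean above background.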

How the results depend on the processing

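No paired analysis was possible because each dog gave 1 tumor on 1 array and so fell in 1 group of each comparison. None of the 38 probesets passed an adjusted p of 0.05 in the limb, segment or cohort comparison under any alternative run, including one without the probesets of unlisted gene ID, which was chosen after seeing the data. Over all probesets the count of 0 became 1 between the limbs with osteoblastic tumors only or the upper segment only, 1 between segments without Greyhounds and 10 with osteoblastic tumors only, and 2 between cohorts without Greyhounds. Leaving out 1 dog gave 0 to 1 between segments (1 without radius dog 188084). In the interaction, the fit without tibia dog 153599 left 1 tibia dog, and the term of the dimmer MEIS2 probeset was 4.10 there. Signs of small differences changed. Between the limbs, with array weights TBX4 was -0.045 and MEIS1 0.13. With a sex covariate MEIS1 was 0.067 and MEIS2 -0.30, without Greyhounds MEIS1 was 0.28 and MEIS2 -0.382, and with osteoblastic tumors only MEIS1 was 0.30 and MEIS2 -0.47. MEIS2 was -0.075 with a cohort covariate and -1.03 in the upper segment only. Between segments, with osteoblastic tumors only, HOXC4 was 0.046, HOXB7 0.17, TBX4 0.082, TBX5 -0.34, MEIS2 -0.80 and HOXD10 0.73. That subset, also behind the count of 10, held radius dogs 168327 and 193231 and no tibia dog in the lower segment. In the forelimb only TBX4 was 0.10, MEIS2 -0.87, HOXD10 0.95 and its second probeset 0.24, and MEIS2 was -0.026 without Greyhounds. Leaving out 1 dog moved the limb difference of TBX4 over -0.15 to 0.34, of MEIS1 over -0.29 to 0.21 and of MEIS2 over -0.53 to 0.52, and the segment difference of TBX5 over -0.12 to 0.17, of MEIS2 over -0.23 to 1.07 and of HOXD10 over -0.47 to 0.23. HOXC10 kept its sign between the limbs at 1.03 to 1.39 and the second HOXD10 probeset at 0.91 to 2.12. The cause of these changes was not tested. PLIER signals near 0 spread widely on the log2 scale, as in PITX1 and the dimmer HOXB6 probeset.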

Other observations

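Outside the HOX genes and limb factors, genes were ranked by their probeset of smallest p between the limbs. The first 10 all had an adjusted p of 0.970 in limma. ALDH3B1 alone is shown by its brightest probeset. The others are shown by a dimmer probeset, and values of their brightest are not given here. ALDH3B1, an aldehyde dehydrogenase, averaged 8.91 ± 0.88 in hindlimb tumors and 7.39 ± 0.45 in forelimb tumors, and SERPINE2, a protease inhibitor, averaged 11.29 ± 0.74 in hindlimb tumors and 9.53 ± 0.82 in forelimb tumors (SD). LAMTOR1 was higher in hindlimb tumors by 0.82 and RPRD1A lower by a difference of -1.13, both above background. ATG4D (1.08), CRYM (1.13), MAST2 (0.80) and ME3 (1.34) had positive differences, and N4BP1 (-0.52) and DIDO1 (-0.67) negative ones, on probesets with means below background. Hindlimb and forelimb dogs did not overlap for ATG4D and DIDO1, as for 0.021% of all probesets. Both were picked by their small p, so this is no separate result.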
